A study of Mus musculus with 44 samples.

Results

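The cultures described here are mouse peritoneal macrophages kept with lipopolysaccharide (LPS) for 72 h, set against the same cells kept with LPS for 24 h. The 8 libraries, 4 at each time, were taken from the 44 of the series by their treatment and time labels, and no measured value entered that rule. The comparison itself was chosen with earlier results of these data known. LPS, a glycolipid of the outer membrane of Gram-negative bacteria, is recognised by macrophages through Cd14 and a Toll-like receptor, which signal through NF-kB to cytokine and chemokine genes and through interferon regulatory factors to type I interferon. Interferon then acts back on the same cells and turns on antiviral genes. Early LPS responses are followed by feedback inhibition, by a shift of metabolism towards glycolysis and by a changed set of surface receptors, and LPS is the usual agent for classical (M1) activation.

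Messenger RNA was measured in cells of C57BL/6 mice. The animals had received thioglycolate, a medium that draws inflammatory cells into the peritoneum, and the cells were collected 4 days later and pooled over several mice into 1 isolate. What adhered after 24 h of culture was taken as macrophages and kept in DMEM with 10% fetal bovine serum and antibiotics. The groups used here are LPS at 100 ng/mL for 72 h (4 libraries), for 24 h (4 libraries) and for 8 h (4 libraries, given for level only). Cultures with no addition were kept for 72 h (3 libraries), for 24 h (4 libraries) and for 8 h (4 libraries, shown only in summed list levels). All replicates are cultures of that 1 isolate, so every p-value measures the spread between cultures and not between animals. That spread was estimated for each gene over all 44 libraries in 1 fit, so SEs and p-values also hold the spread within other treatments. RNA was selected for poly(A) and read from 1 end at 50 bases, and levels are TMM-scaled CPM, counts relative to the size of the library.

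The LPS 72 h libraries held 1103271 to 10670598 gene counts and the LPS 24 h libraries 3593885 to 13729187. Multi-mapped reads, set against every 100 gene counts, ranged from 62.7 to 92.8 in LPS 72 h and from 41.7 to 52.6 in LPS 24 h. The times did not overlap in controls either, with 66.7 to 83.1 at 72 h and 43.3 to 58.0 at 24 h. The effect of this difference on genes with near copies was not tested. LPS 72 h replicate 1, the shallowest of the 8, stood apart from its group, with a mean correlation of 0.914 with the other 3 libraries across genes, against 0.949 to 0.957 for those 3. It held 13610 CPM of H2-M2 and 6966 CPM of Akap5, where the other 3 held 2779 to 3503 and 1432 to 1921 CPM. Among the controls at 24 h, replicate 1 had the most Tnf, with 28.9 CPM against 6.10 to 12.8 CPM in the other 3. Results that change without such a library are given with that value.

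Of 14537 genes tested, 2751 (18.9%) were higher and 2366 (16.3%) lower in LPS cultures at 72 h than at 24 h, at an edgeR adjusted p under 0.05, which makes 5117 genes (35.2%) in either direction. At least 2-fold, 1703 genes (11.7%) were higher and 641 (4.41%) lower. Those 2-fold falls numbered 975 without LPS 72 h replicate 3, and thinning the 8 libraries to equal depth gave 1088 rises and 980 falls of that size. All 4 libraries at 72 h lay above all 4 at 24 h for 2222 genes (15.3%) and below them for 2476 (17.0%). The median log2 fold change of all genes was 0.05. Without LPS 72 h replicate 1, 3 or 4, the share of calls that were rises was 43.4%, 42.9% or 43.9%, against 53.8% with all libraries. The plot of change against level shows both tails. In bulk RNA of this kind, fewer cells of a type and less RNA per cell cannot be told apart.

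**Figure D1:**
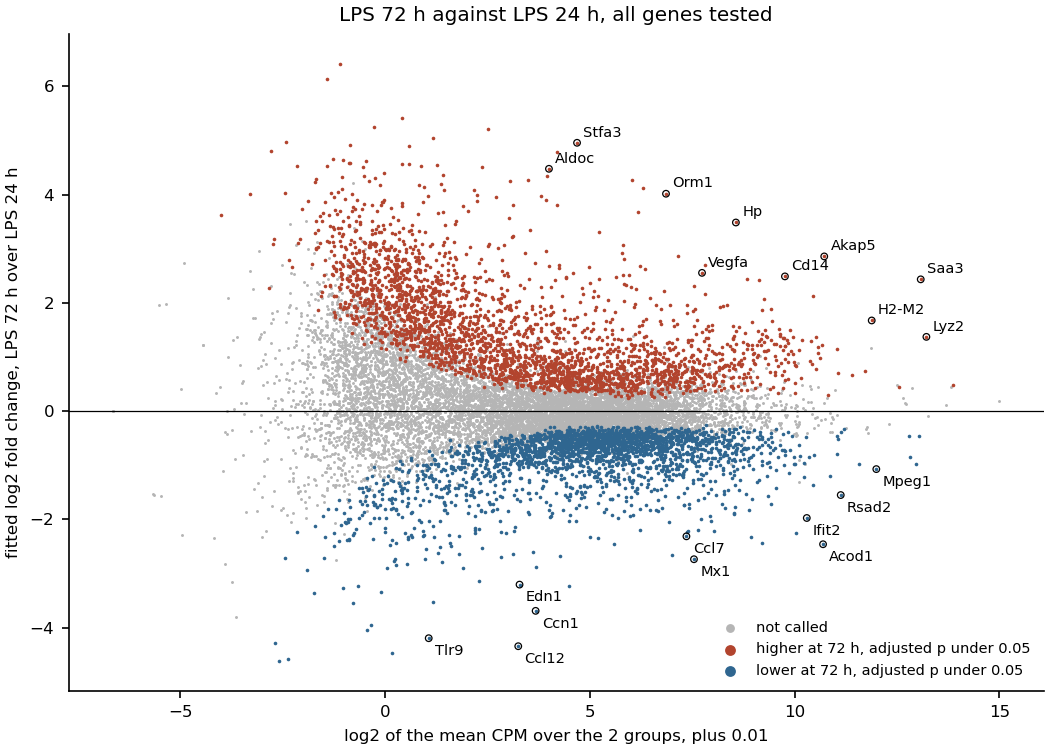
Fitted log2 fold change of LPS 72 h over LPS 24 h (vertical) against log2 of the mean CPM of both groups (horizontal) for the 14537 genes tested, with 2751 called higher and 2366 called lower in colour. Named genes are circled, among them Saa3 and Lyz2 at the high end of level and Ccl12, Ccn1 and Tlr9 among the largest falls.

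The macrophage label was checked against 14 marker genes. All 14 were measured, and their summed level was 16400 to 27290 CPM at 72 h and 13130 to 13780 CPM at 24 h. Of these, 6 were called higher and 4 lower, beside the 18.9% and 16.3% of all genes. Lyz2, the lysozyme of myeloid cells, stood at 8889, 13570, 14970 and 17600 CPM in replicates 1 to 4 at 72 h, against 5395, 5510, 5065 and 5288 CPM at 24 h. The groups did not overlap, and the rise was 2.59-fold (log2 1.37 ± 0.19, SE; adjusted p = 5.25e-07). Itgam, which codes for the integrin chain CD11b, rose 2.99-fold. Cd68, a lysosomal glycoprotein, averaged 717 ± 176 CPM at 72 h and 1299 ± 65.4 CPM at 24 h (SD, n = 4 each) and fell 1.81-fold.

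Antiviral interferon-stimulated genes were the list with the lowest median change of the 41 examined. Of 32 tested members 23 fell and 1 rose, where 16.3% and 18.9% of all genes did, and their median log2 fold change was -1.09 against 0.05 for all genes. Their summed level was 50560 to 60310 CPM at 8 h of LPS, 20130 to 22810 CPM at 24 h and 8928 to 11140 CPM at 72 h. It remained above the 672 to 808 CPM of control cultures at 72 h. Without LPS 72 h replicate 1 or 4 or LPS 24 h replicate 2 or 3 the count of rises was 0. For 11 of the 32 the LPS change lay below the control change, and for none above it, beside 5.17% and 5.47% of all genes.

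The 300 bases around the annotated start of 2 of these genes are shown because both fell and both windows hold the core of an interferon-stimulated response element, searched on either strand as GAAA, any 2 bases and GAAA again, and marked in capitals. The windows run from 250 bases before to 50 after the RefSeq start, in the direction of the gene, on GRCm38.p6. Ifih1, a sensor of viral double-stranded RNA, lies at chr2:62595798-62646255 on the minus strand, with its window at chr2:62646206-62646505. Trim30a lies at chr7:104409025-104465193 on the minus strand, with its window at chr7:104465144-104465443.
Ifih1: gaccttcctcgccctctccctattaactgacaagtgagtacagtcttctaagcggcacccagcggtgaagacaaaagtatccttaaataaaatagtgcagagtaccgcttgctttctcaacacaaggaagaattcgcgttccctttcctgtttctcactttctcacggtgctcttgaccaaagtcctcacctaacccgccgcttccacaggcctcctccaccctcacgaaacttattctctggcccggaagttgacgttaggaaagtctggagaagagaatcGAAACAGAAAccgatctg
Trim30a: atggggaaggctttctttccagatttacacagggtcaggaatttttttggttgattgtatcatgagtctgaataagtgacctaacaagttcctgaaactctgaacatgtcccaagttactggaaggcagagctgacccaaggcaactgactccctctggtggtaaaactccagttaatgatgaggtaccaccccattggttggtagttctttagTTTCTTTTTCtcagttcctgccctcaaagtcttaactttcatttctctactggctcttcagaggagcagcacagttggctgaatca
The letters occur in 943 of the 27025 promoters of the table (3.49%) and in 351 of the 10412 tested genes with a window (3.37%). Windows exist for 22 of the 32 list members, under the 80% needed to give a share for the list.

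Ifih1 was measured at 139, 159, 170 and 186 CPM at 72 h, against 418, 527, 416 and 461 CPM at 24 h. Every library at 72 h lay below every library at 24 h, and the fall was 2.78-fold (log2 -1.47 ± 0.17, SE; adjusted p = 1.71e-08). Trim30a was at 419, 368, 362 and 434 CPM, against 722, 863, 736 and 821 CPM, a fall of 1.99-fold (adjusted p = 2.36e-07) with no overlap of the groups. In control cultures neither gene was called between the same times, and for both the LPS change lay below the control change (log2 difference -1.06 for Ifih1 and -0.93 for Trim30a).

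The falls were wider for Mx1, an antiviral GTPase at chr16:97447035-97462907, which had 24.1, 45.7, 59.3 and 58.9 CPM at 72 h, against 328, 368, 268 and 340 CPM at 24 h. Its groups lay far apart, and it was 6.67-fold lower (adjusted p = 9.80e-05). Isg20, an RNA exonuclease, was 6.36-fold lower, and the 2′-5′-oligoadenylate synthases Oas1g and Oas3 were 3.95-fold and 3.71-fold lower. Rsad2 (viperin) averaged 14900 CPM at 8 h and had 1562, 992, 987 and 1013 CPM at 72 h, against 3092, 3536, 3110 and 3598 CPM at 24 h. LPS 72 h replicate 1 was highest in its group, and the fall was 2.93-fold (adjusted p = 0.00941). Ifit2 fell 3.93-fold (adjusted p = 0.00393). For Mx1, Oas1g, Oas3, Rsad2 and Ifit2 the difference between the LPS and control changes was not called.

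Interferon-inducible GTPases, which act on vacuoles that hold pathogens, fell in 11 of 18 tested cases and rose in 1 (Gbp8). Of all genes, 16.3% fell and 18.9% rose. The median log2 fold change of the list was -0.78. The single rise was lost without LPS 72 h replicate 1 or LPS 24 h replicate 3. For 2 of the 18 the LPS change lay below the control change, and for none above it, beside 5.17% and 5.47% of all genes. Gbp9 had 73.0 ± 5.50 CPM at 72 h and 242 ± 34.5 CPM at 24 h, and Irgm2 165 ± 38.4 and 304 ± 34.4 CPM (SD, n = 4 each). Both fell, by 3.32-fold and 1.82-fold. Gbp9 shares exons with Gbp4 and Gbp8, and Irgm2 with Igtp, so their reads are uncertain to that extent. Gbp2b, a further guanylate-binding protein, was 6.49-fold lower, at 1.58 ± 1.11 CPM against 12.6 ± 3.38 CPM, with no read in LPS 72 h replicate 1.

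**Figure D2:**
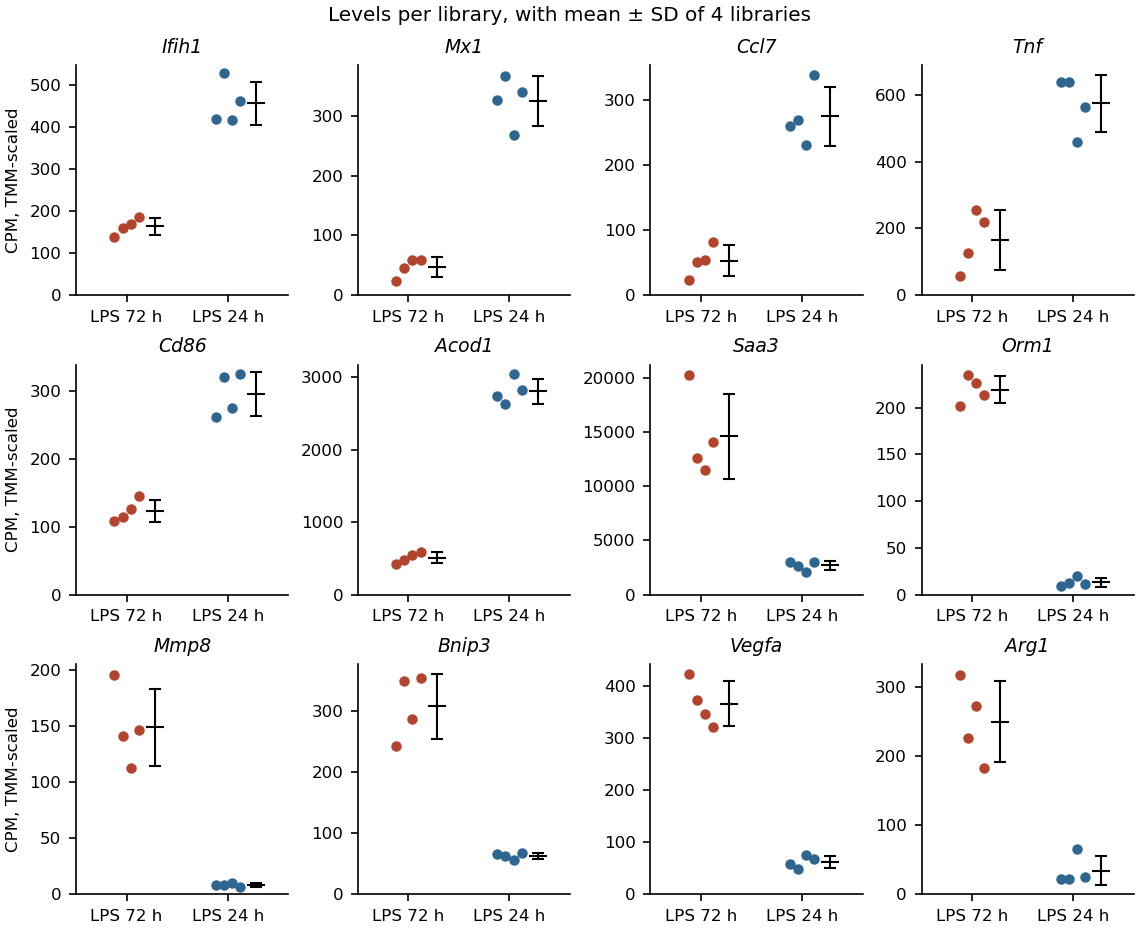
TMM-scaled CPM (vertical, from 0) of 12 genes in each library of LPS 72 h (left) and LPS 24 h (right), with the mean ± SD of 4 libraries beside the points. In each panel the 4 libraries of 1 group lie on 1 side of the 4 of the other, with Ifih1, Mx1, Ccl7, Tnf, Cd86 and Acod1 lower at 72 h and the other 6 higher.

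Among chemokines, 9 of 20 tested fell and 2 rose, beside 16.3% and 18.9% of all genes, and the median log2 fold change was -0.68. For 3 of the 20 the LPS change lay below the control change, and for none above it, beside 5.17% and 5.47% of all genes. The 3 monocyte attractants Ccl2, Ccl7 and Ccl12 were all among the falls. Ccl12, at chr11:82101845-82103400, had 0, 0.841, 1.10 and 0.931 CPM at 72 h, against 19.3, 18.3, 14.2 and 21.4 CPM at 24 h, and was nearly lost from every library at 72 h. Its fitted fall was 20.3-fold (log2 -4.35 ± 0.54, SE; adjusted p = 5.10e-08). Ccl7 was at 24.1, 50.8, 54.7 and 82.3 CPM, against 260, 270, 232 and 338 CPM. All 4 values at 72 h were below those at 24 h, by 4.97-fold (adjusted p = 5.63e-07). In controls Ccl7 rose 2.85-fold over the same interval, and the difference of the changes was called (log2 -3.83 ± 0.53, SE; adjusted p = 1.82e-06).

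Cxcl5, a neutrophil attractant, fell 3.64-fold. Cxcl10, which attracts T cells, averaged 163 ± 26.9 CPM at 72 h and 824 ± 278 CPM at 24 h (SD, n = 4 each), with LPS 24 h replicate 3 at 411 CPM, and was 5.03-fold lower (adjusted p = 0.0103). The risers were Ccl6, 2.99-fold (353 ± 32.2 against 118 ± 11.5 CPM), and Ccl9. Both also rose in controls, Ccl6 3.30-fold (means of 1794 against 543 CPM) and Ccl9 by log2 1.01. For neither was the difference between the LPS and control changes called. The neutrophil attractants Cxcl1, Cxcl2 and Cxcl3 were not called, at log2 0.45, 0.56 and 0.93.

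Pro-inflammatory cytokines fell in 10 of 19 tested cases and rose in 2, beside 16.3% and 18.9% of all genes. The median log2 fold change of the cytokines was -0.90. DESeq2 called 6 of them lower. Set against controls, the LPS change lay below the control change for 1 of the 19 and above it for none. Of all genes 5.17% lay below and 5.47% above, so the count of 1 is near the share of all genes. Their summed level was 14150 to 16380 CPM at 8 h, 2537 to 3132 CPM at 24 h and 2162 to 2891 CPM at 72 h, so that the sums at the later times overlapped although single members moved. Tnf was at 58.8, 125, 256 and 220 CPM at 72 h, against 638, 639, 460 and 563 CPM at 24 h, and fell 3.43-fold (adjusted p = 0.0144). Il12b, a subunit of interleukins 12 and 23, fell 3.57-fold (9.34 ± 2.55 against 31.5 ± 5.34 CPM; adjusted p = 0.00588), a call that DESeq2 did not make. Il27 fell 6.09-fold and Il1a 2.22-fold.

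Il6 had 20.2, 22.4, 38.3 and 28.3 CPM at 72 h, against 108, 106, 81.6 and 125 CPM at 24 h. The libraries did not overlap, but the call was weak (3.76-fold lower; adjusted p = 0.0426) and was lost in DESeq2 and without any 1 of 6 of the 8 libraries, the exceptions being replicate 3 of each time. Il1b was not called, with 553 ± 131 CPM at 72 h and 462 ± 82.1 CPM at 24 h (SD, n = 4 each; log2 0.26 ± 0.60, SE), and it averaged 2619 CPM at 8 h. Inhba, which codes for the activin A subunit, rose 5.33-fold, with 2015 CPM in LPS 72 h replicate 1 and 581 to 612 CPM in the other 3, against 144 to 210 CPM at 24 h. Without that library its log2 fold change was 1.66, against 2.41 with all. Osm, the other riser, lost its call without LPS 72 h replicate 2 or 4.

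Feedback inhibitors fell in 6 of 19 cases and rose in 2, beside 16.3% and 18.9% of all genes. Il1rn, the interleukin 1 receptor antagonist, had 277, 438, 392 and 516 CPM at 72 h, against 1142, 1141, 955 and 1118 CPM at 24 h. It was lower in all 4 libraries, by 2.67-fold (adjusted p = 4.96e-09). Socs1, an inhibitor of interferon and cytokine receptors, fell 3.51-fold and Atf3, a repressor of cytokine genes, 2.03-fold. Dusp1, a phosphatase of stress kinases, rose 1.79-fold, and its exons overlap those of Ergic1 on the opposite strand.

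Of NF-kB subunits and Toll-like receptor signalling, 9 of 22 tested genes fell and Cd14 alone rose, beside 16.3% and 18.9% of all genes. Cd14, the LPS co-receptor, had 1641, 1347, 1443 and 1472 CPM at 72 h, against 303, 274, 211 and 264 CPM at 24 h. The groups were far apart and the rise was 5.62-fold (log2 2.49 ± 0.18, SE; adjusted p = 9.48e-14). It exceeded the change in controls, where Cd14 was not called (log2 difference 2.08 ± 0.26, SE; adjusted p = 2.15e-07). Among the falls were 4 receptors, which were Tlr6 (log2 -0.74) and Tlr1 (2.83-fold), which sense lipopeptides, Tlr3 (3.59-fold), which senses double-stranded RNA, and Tlr9, which senses CpG DNA and had 0 to 0.366 CPM at 72 h, against 1.99 to 6.99 CPM at 24 h. Tlr4, the LPS receptor, was not called (log2 -0.07).

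**Figure D3:**
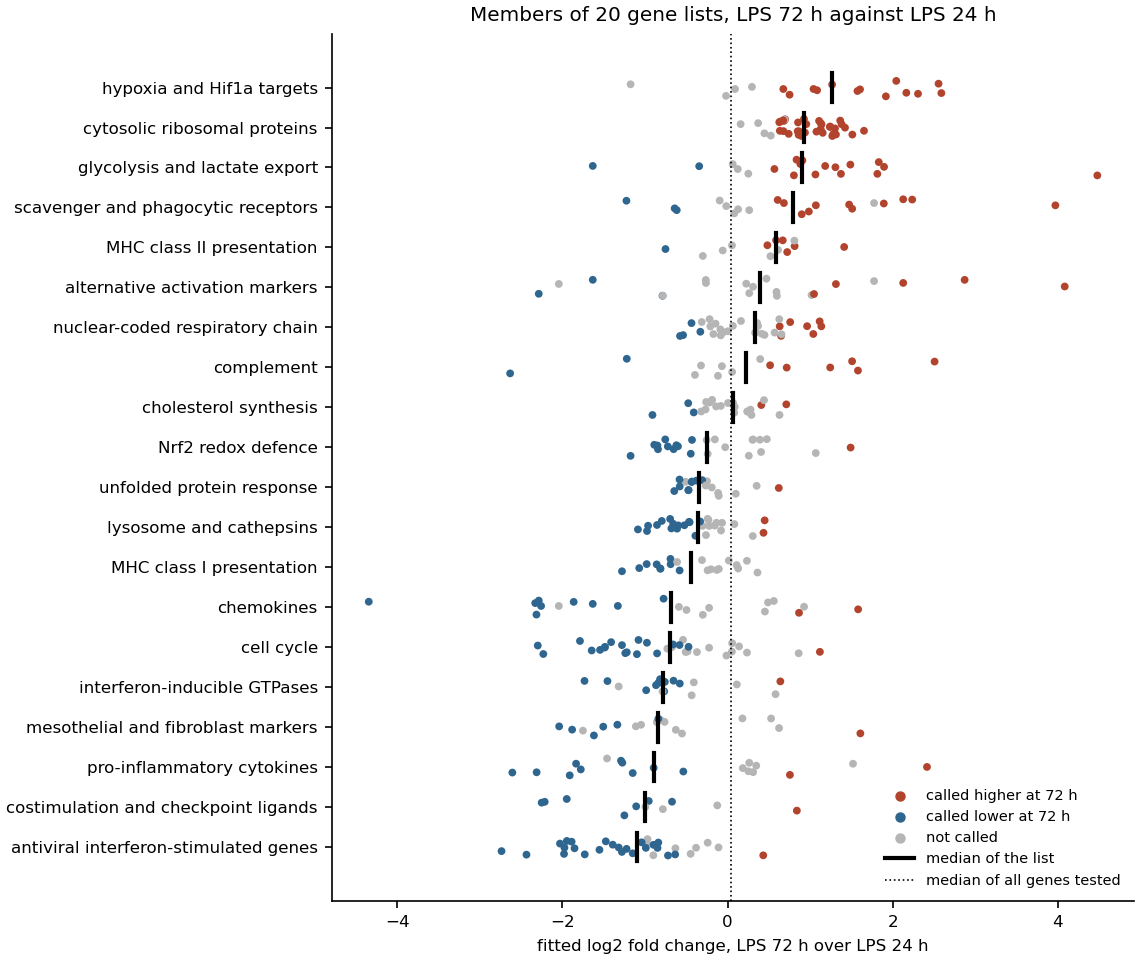
Fitted log2 fold change of LPS 72 h over LPS 24 h (horizontal) for each tested member of 20 gene lists, coloured by call, with the list median as a black bar and the median of all 14537 genes as a dotted line. Medians run from 1.27 for hypoxia and Hif1a targets down to -1.09 for antiviral interferon-stimulated genes.

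Antigen presentation genes moved both ways. Of 13 tested genes of MHC class II presentation 6 rose and 1 fell (Ciita), beside 18.9% and 16.3% of all genes. The median log2 fold change was 0.59. Without LPS 72 h replicate 4, 3 rose, and without replicate 3 of both times 2 rose, and the fall of Ciita, the class II transactivator, was lost without LPS 72 h replicate 2 or LPS 24 h replicate 1 or 2. H2-Eb1 was at 440, 310, 385 and 409 CPM at 72 h, against 251, 211, 195 and 220 CPM at 24 h, with no overlap and a rise of 1.76-fold (adjusted p = 0.000409). H2-Aa rose 1.65-fold, H2-Ab1 1.59-fold and Ctss, the protease that trims the class II invariant chain, 1.40-fold. The call of H2-Aa was lost without replicate 3 of both times, and that of H2-Ab1 also without LPS 72 h replicate 4. In controls these 4 were not called, and for each the LPS change exceeded the control change (log2 differences from 0.51 to 1.10).

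Of MHC class I presentation, 9 of 20 tested genes fell and none rose, beside 16.3% and 18.9% of all genes. The median log2 fold change was -0.45. In controls 8 fell, beside 9.71% of all genes, with a median of -0.45. The difference of changes was called for 1, H2-K1, beside 10.6% of all genes. Tapbp (tapasin) fell 1.97-fold, H2-Q6 2.099-fold and Nlrc5, the class I transactivator, 2.43-fold. H2-Q6 and its near copies share sequence, so its reads are uncertain. H2-M2, a class I-like gene, was 3.19-fold higher (adjusted p = 0.0166), but its value in LPS 72 h replicate 1 was several times that of the rest, and without that library the call was lost (log2 0.70).

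Costimulatory and checkpoint ligands fell in 7 of 11 cases, beside 16.3% of all genes, with a median log2 fold change of -0.99. For 2 of the 11 the LPS change lay below the control change, and for none above it, beside 5.17% and 5.47% of all genes. Cd86, a ligand of the T cell receptor CD28, had 109, 114, 126 and 145 CPM at 72 h, against 262, 320, 274 and 326 CPM at 24 h. All libraries at 72 h were below all at 24 h, by 2.38-fold (adjusted p = 8.41e-08). Icosl fell 4.76-fold and Slamf1 3.86-fold. Slamf1 had 45.6 CPM in LPS 24 h replicate 3 and 19.1 to 20.9 CPM in the other 3 libraries at 24 h. Cd80, the other CD28 ligand, was the 1 riser.

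Several acute-phase and granule genes were among the rises. Saa3, a serum amyloid A of macrophages at chr7:46711998-46715700, had 20300, 12650, 11460 and 14070 CPM at 72 h, against 3055, 2602, 2132 and 3023 CPM at 24 h, after a mean of 1225 CPM at 8 h. Each library at 72 h exceeded each at 24 h, and the rise was 5.41-fold (log2 2.44 ± 0.31, SE; adjusted p = 1.03e-07). Orm1, the acute-phase protein orosomucoid, at chr4:63344560-63348163, was at 202, 235, 226 and 214 CPM, against 8.95, 12.9, 19.7 and 11.2 CPM. The values at 72 h were close, those at 24 h ranged from 8.95 to 19.7 CPM, and the rise was 16.2-fold (adjusted p = 1.15e-08). Hp (haptoglobin), named after its values were seen, rose 11.2-fold (696 ± 51.2 against 62.5 ± 17.8 CPM; SD, n = 4 each; adjusted p = 2.46e-09).

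Mmp8, the neutrophil collagenase, had 196, 141, 112 and 146 CPM at 72 h, against 8.39, 8.29, 10.3 and 6.52 CPM at 24 h. It rose 17.5-fold (log2 4.13 ± 0.46, SE; adjusted p = 6.37e-09), and all values at 72 h were above 100 CPM. S100a8, a calcium-binding protein of myeloid cells, rose 6.49-fold, to 393 ± 94.1 CPM against 60.3 ± 3.82 CPM. Lcn2, which binds bacterial siderophores, rose 3.91-fold. These 3 are among 13 neutrophil markers, of which 7 passed the filter on low counts. Of those 7, 4 rose and 1 fell, beside 18.9% and 16.3% of all genes. The summed level was 879 to 1372 CPM at 72 h and 181 to 326 CPM at 24 h. In controls at 72 h it was 71.9 to 102 CPM. Csf3r, the receptor of granulocyte colony-stimulating factor, fell 3.25-fold. S100a9, Ly6g, Mpo, Elane, Ngp and Ltf, the remaining markers of that list, did not pass the filter and held 2 to 32 counts each over the 8 libraries.

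Stfa3, a stefin A protease inhibitor at chr16:36450537-36455392, had 46.3, 42.5, 43.6 and 67.5 CPM at 72 h, against 0.839, 2.32, 0.637 and 2.27 CPM at 24 h, a rise of 31.1-fold (adjusted p = 3.37e-12) with no overlap. It belongs to a family of near copies. Trem1, a receptor that amplifies inflammatory signals, rose 15.7-fold, to 26.2 ± 2.33 CPM against 1.89 ± 1.43 CPM. The surface proteins Ly6c2 and Ly6i rose 3.90-fold and 5.45-fold. Of 13 markers of monocytes and Ly6 genes, 6 rose and 3 fell, beside 18.9% and 16.3% of all genes. Without LPS 24 h replicate 2, 3 rose.

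Other large rises by the naming rule came from genes of varied function. Mgarp, a mitochondrial protein, had 11.1 ± 2.05 CPM at 72 h and 0.238 ± 0.380 CPM at 24 h, where 2 of 4 libraries held no read, and its fitted rise was 37.0-fold (log2 5.21, and 7.03 without LPS 24 h replicate 3, which held most of the reads at 24 h). Hsd11b1, which regenerates active glucocorticoid, was at 9.87 ± 2.62 CPM against 0.389 ± 0.106 CPM and rose 22.8-fold. Tmem119, a marker of brain microglia, had 31.8, 30.6, 28.9 and 27.0 CPM at 72 h, against 2.24, 1.32, 1.27 and 1.28 CPM at 24 h. Its libraries at 72 h were almost alike, while at 24 h replicate 1 stood above the others. The rise was 20.4-fold (adjusted p = 9.54e-12). Cdo1, which oxidises cysteine, rose 19.2-fold, and F630028O10Rik 19.1-fold. Among abundant genes, Akap5, an anchoring protein of protein kinase A, was 7.25-fold and AA467197 2.21-fold higher. Without LPS 72 h replicate 1 the log2 fold change of Akap5 was 1.91, against 2.86 with all libraries. Akap5 also rose in controls, 4.83-fold (means of 5475 against 1134 CPM). The difference between its LPS and control changes was not called (edgeR adjusted p = 0.78).

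Hypoxia and Hif1a targets rose in 13 of 17 tested cases and none fell, beside 18.9% of all genes higher, with a median log2 fold change of 1.27. In controls 5 rose, beside 8.24% of all genes, with a median of 0.30. The LPS change exceeded the control change for 9 and lay below it for 1, beside 5.47% and 5.17% of all genes. The summed level of the list was 1251 to 1483 CPM at 8 h of LPS, 1219 to 1336 CPM at 24 h and 2618 to 3068 CPM at 72 h. The promoters of Bnip3, of this list, and of Aldoc, of the glycolysis list, are shown because both genes rose and the windows hold ACGTG, the core of the hypoxia response element, on either strand, again in capitals. Aldoc, aldolase C, lies at chr11:78322968-78327781 on the plus strand, with its window at chr11:78322823-78323122. Bnip3, a mitophagy receptor, lies at chr7:138890836-138909519 on the minus strand, with its window at chr7:138909457-138909756, and its match is a palindrome that counts on both strands.
Aldoc: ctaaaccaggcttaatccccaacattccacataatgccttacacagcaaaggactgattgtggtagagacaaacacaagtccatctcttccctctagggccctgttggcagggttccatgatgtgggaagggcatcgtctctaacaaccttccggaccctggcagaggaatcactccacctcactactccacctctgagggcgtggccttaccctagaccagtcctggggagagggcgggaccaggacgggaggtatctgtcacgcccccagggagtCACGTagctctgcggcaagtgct
Bnip3: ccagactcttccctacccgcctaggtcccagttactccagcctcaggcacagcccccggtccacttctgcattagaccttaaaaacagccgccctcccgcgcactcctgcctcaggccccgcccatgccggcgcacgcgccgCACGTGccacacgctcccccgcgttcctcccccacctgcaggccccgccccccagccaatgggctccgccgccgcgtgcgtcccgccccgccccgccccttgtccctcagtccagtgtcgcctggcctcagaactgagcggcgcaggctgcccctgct
ACGTG occurred in 9 of the 14 list members with a window and in 10 of 19 of the glycolysis list, against 2654 of the 10412 tested genes with a window (25.5%) and 5315 of all 27025 promoters (19.7%). It occurred in 217 of the 987 windows of genes called at least 2-fold higher. Windows exist for under 80% of the genes tested, which leaves the comparison with that share void. Such short letters are a description of the window and not a site.

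Bnip3 was at 243, 350, 287 and 355 CPM at 72 h, against 65.2, 63.1, 55.5 and 67.2 CPM at 24 h. No library overlapped, and the rise was 4.94-fold (log2 2.31 ± 0.15, SE; adjusted p = 7.25e-15). Vegfa, the endothelial growth factor, at chr17:46016993-46032369, had 422, 372, 346 and 321 CPM, against 57.0, 48.3, 74.6 and 67.7 CPM. It rose 5.88-fold (adjusted p = 1.98e-14), again without overlap. Hilpda, a lipid droplet protein, rose 4.48-fold and Mxi1, a Myc antagonist, 4.12-fold. For all 4 the LPS change exceeded the control change by log2 1.86 to 2.25.

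Glycolysis and lactate export showed 14 rises and 2 falls in 19 tested genes, beside 18.9% and 16.3% of all genes. The median log2 fold change was 0.91. Controls showed 4 rises and 3 falls (median -0.11), beside 8.24% and 9.71% of all genes. The LPS change exceeded the control change for 13 and lay below it for none, beside 5.47% and 5.17% of all genes. Aldoc had 37.6, 28.6, 28.7 and 27.8 CPM at 72 h, against 1.12, 1.08, 1.91 and 1.09 CPM at 24 h, and rose 22.3-fold (log2 4.48 ± 0.25, SE; adjusted p = 3.91e-16). It also rose in controls, by 2.98-fold. Tpi1, triosephosphate isomerase, rose 3.72-fold, Slc16a3, a lactate exporter, 3.52-fold, and Ldha, lactate dehydrogenase A, 2.59-fold, to 2133 ± 101 CPM against 824 ± 53.3 CPM. The falls were Hk1 and Hk3, both hexokinases, and without LPS 72 h replicate 2 or 4 or LPS 24 h replicate 1, 2 or 4 only 1 member fell.

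Nos2, the inducible nitric oxide synthase of classical activation, did not change by the test. It had 296, 620, 800 and 578 CPM at 72 h, against 646, 621, 518 and 558 CPM at 24 h (log2 -0.02 ± 0.39, SE; adjusted p = 0.973), and the groups overlapped. Arg1, arginase of the competing path, at chr10:24915221-24927484, was at 318, 227, 273 and 183 CPM, against 22.6, 21.9, 65.1 and 25.1 CPM. The groups did not overlap, and the rise was 7.32-fold (adjusted p = 7.93e-09). Controls also had more, with 89.9, 286 and 226 CPM at 72 h, against 23.5, 12.4, 36.1 and 12.9 CPM at 24 h, and the changes did not differ by the test (log2 difference -0.36 ± 0.45, SE; adjusted p = 0.703). Gch1, which makes the cofactor of nitric oxide synthases, fell 1.83-fold and Slc7a1, a carrier of arginine, 1.79-fold.

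Acod1, which makes itaconate, had 428, 472, 546 and 590 CPM at 72 h, against 2738, 2629, 3040 and 2818 CPM at 24 h, after 4859 CPM on average at 8 h. The libraries within a time were close, and the fall was 5.51-fold (log2 -2.46 ± 0.62, SE; adjusted p = 0.00238). The spread behind that SE came from all groups of the fit, among them controls at 8 h with 62.0 ± 75.3 CPM (SD). Of the 20 tested genes of itaconate, citrate and succinate metabolism 4 rose and 4 fell, beside 18.9% and 16.3% of all genes. The falls numbered 2 to 7 when 1 library was left out, with 7 without LPS 72 h replicate 3. Sdha, a subunit of succinate dehydrogenase, fell 1.48-fold. Of 31 nuclear-coded genes of the respiratory chain 7 rose and 4 fell, where 18.9% and 16.3% of all genes did. In controls 7 of these rose and 2 fell, beside 8.24% and 9.71% of all genes, and the difference of changes was called for none. The rises with LPS numbered 3 without LPS 72 h replicate 1 and 4 without replicate 4. Without LPS 24 h replicate 1, 1 gene fell.

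Lipid genes split. Alox5ap, which hands arachidonic acid to 5-lipoxygenase, had 81.0, 116, 122 and 138 CPM at 72 h, against 20.98, 24.6, 23.1 and 27.5 CPM at 24 h. It rose 4.80-fold (adjusted p = 3.37e-11), with no overlap. Ltc4s, leukotriene C4 synthase, rose 20.5-fold from a low level (5.05 ± 1.59 against 0.243 ± 0.112 CPM), and Pla2g7, which degrades platelet-activating factor, rose 2.33-fold. Within the prostaglandin and leukotriene list 6 of 16 rose and 2 fell, beside 18.9% and 16.3% of all genes. The list counts were 3 and 1 without replicate 3 of both times, and 1 fell without LPS 24 h replicate 3. Fabp4, a fatty acid carrier, rose 3.07-fold, whereas Nr1h3, the sterol receptor LXR alpha, fell 2.32-fold and its target Abcg1, a cholesterol exporter, 2.28-fold. Of 20 LXR targets and lipid genes 6 rose and 4 fell, beside 18.9% and 16.3% of all genes, with 8 falls without LPS 72 h replicate 3. Cholesterol synthesis genes rose in 15 of 23 cases in controls (8.24% of all genes) and in 2 with LPS, where 3 fell. The LPS change lay below the control change for 8, beside 5.17% of all genes.

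Cytosolic ribosomal protein genes rose in 33 of 38 tested cases and none fell, beside 18.9% and 16.3% of all genes. The median log2 fold change was 0.93. The summed level was 28140 to 41830 CPM at 72 h and 13910 to 16880 CPM at 24 h. Without LPS 72 h replicate 1, 22 rose. Rpl5 had 997, 470, 502 and 539 CPM at 72 h, against 283, 253, 286 and 301 CPM at 24 h, and LPS 72 h replicate 1 was far above the rest, but no library overlapped (2.22-fold; adjusted p = 5.30e-05). Rps16 rose 2.43-fold, Rpl3 2.37-fold and Rpl32 1.94-fold. In controls 9 members rose, beside 8.24% of all genes, and the difference of changes was called for none at adjusted p under 0.05. Ribosomal genes have many processed copies in the genome, so that reads of 50 bases can be lost to or shared with these. Multi-mapped reads were more frequent at 72 h than at 24 h, and their part in the ribosomal rises was not tested.

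Of 18 genes of the unfolded protein response 9 fell and 1 rose with LPS, beside 16.3% and 18.9% of all genes. The median log2 fold change was -0.34. In controls 9 rose and 1 fell, beside 8.24% and 9.71% of all genes. The LPS change lay below the control change for 7 and above it for 1, beside 5.17% and 5.47% of all genes. Pdia6, a disulfide isomerase, had 127 ± 20.03 CPM at 72 h and 178 ± 6.27 CPM at 24 h, a fall of 1.39-fold. Hyou1, a chaperone, fell 1.56-fold, with 27.0 CPM in LPS 72 h replicate 1 and 69.6 to 70.0 CPM in the other 3. Of 23 genes of Nrf2 redox defence 11 fell, beside 16.3% of all genes. Among them were Srxn1 (1.85-fold), G6pdx (1.80-fold) and Pgd (1.65-fold), all in the use or making of NADPH or thiols. G6pdx overlaps Ikbkg on the opposite strand. Prdx6, a peroxidase of phospholipids, was the 1 riser, at 351, 388, 381 and 363 CPM against 128, 146, 123 and 132 CPM, 2.81-fold higher (adjusted p = 8.59e-13) and with close replicates.

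Lysosomal genes and cathepsins fell in 15 of 28 tested cases with LPS and in 14 in controls, beside 16.3% and 9.71% of all genes. The median log2 fold changes were -0.36 with LPS and -0.38 in controls. The LPS change was called above the control change for 3 genes and below it for none, beside 5.47% and 5.17% of all genes. The 2 rises with LPS were lost without LPS 72 h replicate 3 or 4. Gpnmb, a lysosomal glycoprotein of lipid-laden macrophages, had 2963, 5653, 6710 and 6100 CPM at 72 h, against 10420, 11070, 10940 and 9741 CPM at 24 h. LPS 72 h replicate 1 was lowest, and the groups did not overlap (1.97-fold lower; adjusted p = 3.41e-05). Mitf, a transcription factor of lysosome genes, fell 1.74-fold.

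Scavenger and phagocytic receptors rose in 11 of 20 tested cases and fell in 3, beside 18.9% and 16.3% of all genes. The median log2 fold change was 0.79. Without LPS 24 h replicate 1, 1 fell. Clec7a (dectin-1), which binds fungal glucans, was at 2276, 2256, 2011 and 2490 CPM at 72 h, against 361, 375, 896 and 435 CPM at 24 h. LPS 24 h replicate 3 was above its group, yet far below every library at 72 h, and the rise was 4.37-fold (log2 2.13 ± 0.18, SE; adjusted p = 1.38e-11). Clec12a and Fcgr2b, both inhibitory receptors, rose 2.77-fold and 2.098-fold. Of 19 genes for clearance of dead cells 2 rose and 4 fell, beside 18.9% and 16.3% of all genes. Thbs1, a bridge to dying cells, rose 4.20-fold, while the receptor Axl, at 157 ± 42.9 CPM against 462 ± 73.0 CPM, fell 2.90-fold, and C1qb, a chain of complement C1q, fell 2.54-fold.

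Of 14 complement genes 6 rose and 2 fell, beside 18.9% and 16.3% of all genes. In controls 4 rose and 2 fell, beside 8.24% and 9.71%. The LPS change lay above the control change for 2 and below it for 2, beside 5.47% and 5.17% of all genes. C1s1, a protease of the C1 complex, had 68.4, 119, 113 and 122 CPM at 72 h, against 23.5, 19.1, 13.3 and 20.8 CPM at 24 h, a rise of 5.68-fold without overlap (adjusted p = 6.18e-12). Serping1, the inhibitor of that protease, fell 6.21-fold, with 0, 1.77, 3.66 and 2.91 CPM, against 14.8, 17.9, 10.1 and 18.7 CPM. Matrix genes went both ways, with 7 rises and 9 falls in 22, beside 18.9% and 16.3% of all genes. In controls 3 of them rose and 2 fell. The LPS change lay above the control change for 4 and below it for 5. Timp3, a protease inhibitor bound to matrix, fell 3.58-fold.

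The matricellular proteins Ccn1 and Ccn2, targets of mechanical and growth factor signals, were among the largest falls. Ccn1, at chr3:145646976-145649981, had 0.964, 1.495, 1.65 and 2.56 CPM at 72 h, against 19.9, 24.2, 28.1 and 23.2 CPM at 24 h. It was 12.9-fold lower (log2 -3.69 ± 0.25, SE; adjusted p = 2.36e-14), and Ccn2 was 9.46-fold lower. In controls both rose, by 2.70-fold and 2.71-fold, and the differences of the changes were log2 -5.13 ± 0.34 and -4.68 ± 0.41 (SE). Edn1, the vasoconstrictor endothelin 1, averaged 420 CPM at 8 h and had 1.93, 2.71, 1.47 and 1.28 CPM at 72 h, against 16.5, 14.1, 23.3 and 16.5 CPM at 24 h, a fall of 9.23-fold (adjusted p = 0.000172). Further falls named by the rule were Tmem202 (7.39-fold), which overlaps the abundant Hexa on the opposite strand, Rnf225 (6.38-fold), the pore-forming protein Mpeg1 (2.103-fold) and Ms4a6d (2.31-fold). Ms4a4c was 2.58-fold lower (adjusted p = 0.0401), a call lost under RLE scaling, in DESeq2, and without any 1 of 6 of the 8 libraries, the exceptions being LPS 72 h replicates 1 and 4.

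Cell cycle genes fell in 18 of 32 tested cases and rose in 1, Nusap1, beside 16.3% and 18.9% of all genes. The median log2 fold change was -0.70. When the 8 libraries were thinned to equal depth, 4 fell. In controls 7 rose and none fell, beside 8.24% and 9.71% of all genes, with a median of 0.43. The LPS change lay below the control change for 17 and above it for none, beside 5.17% and 5.47% of all genes. The summed level of the list was 227 to 286 CPM in LPS cultures and 425 to 467 CPM in controls at 72 h, and 336 to 385 CPM in LPS cultures and 346 to 404 CPM in controls at 24 h. Ccne1, a cyclin of S phase entry, had 8.68, 10.9, 11.5 and 11.5 CPM at 72 h, against 31.3, 35.6, 35.0 and 35.5 CPM at 24 h, and fell 3.13-fold (adjusted p = 3.39e-10) with tight replicates. Mcm6, of the replicative helicase, fell 1.97-fold, Rrm2, of ribonucleotide reductase, 2.66-fold, and Tpx2, of the mitotic spindle, 2.43-fold.

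**Figure D4:**
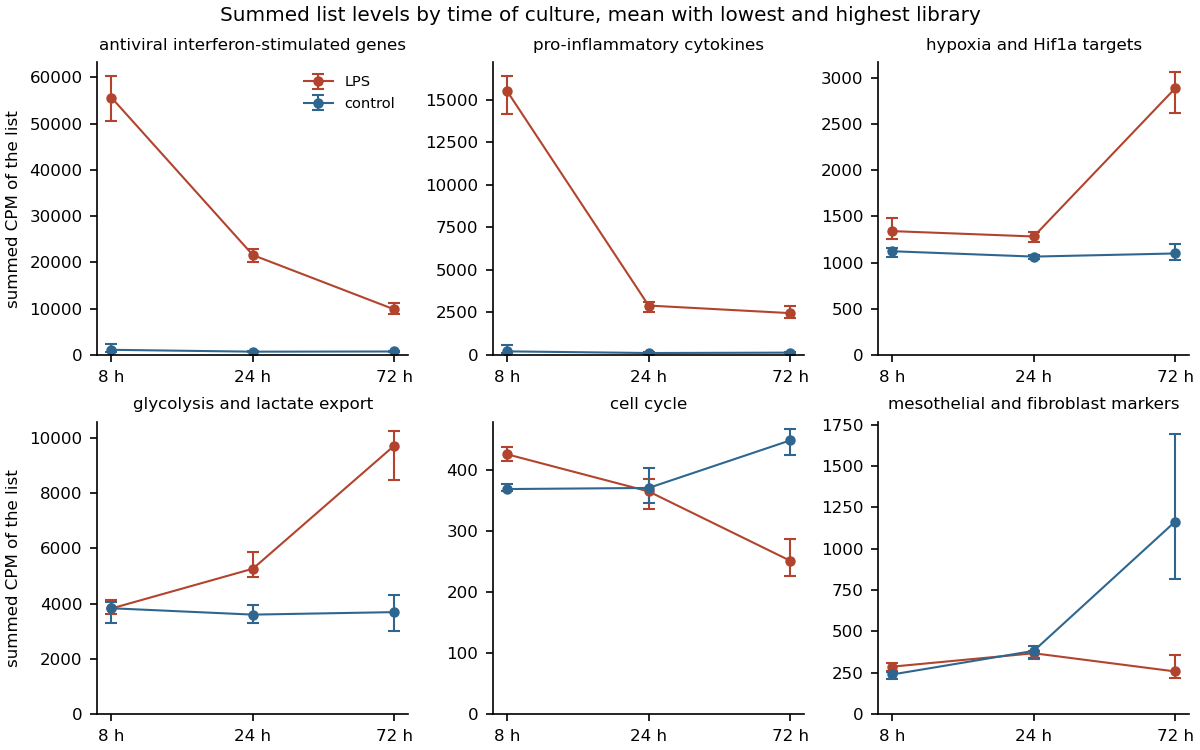
Summed CPM of 6 gene lists (vertical, from 0) at 8, 24 and 72 h in LPS and control cultures, with the mean over libraries and bars from the lowest to the highest library. Antiviral interferon-stimulated genes fell to 8928 to 11140 CPM with LPS at 72 h, hypoxia targets reached 2618 to 3068 CPM, and cell cycle genes were at 227 to 286 CPM with LPS and 425 to 467 CPM in controls at 72 h. Controls at 8 h were uneven, with 661 to 2308 CPM of antiviral interferon-stimulated genes and 86.3 to 555 CPM of pro-inflammatory cytokines.

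Markers of mesothelial cells and fibroblasts were followed because such cells can adhere with macrophages. Of 18 tested, 6 fell and 1 rose with LPS, beside 16.3% and 18.9% of all genes. In controls 11 of the 18 rose and none fell, beside 8.24% and 9.71% of all genes. The LPS change lay below the control change for 9 of these markers, beside 5.17% of all genes. Their summed level was 216 to 360 CPM with LPS at 72 h and 336 to 385 CPM at 24 h, against 817 to 1695 CPM and 342 to 413 CPM in controls. Col1a1, a collagen chain, had 13.5, 7.57, 9.15 and 7.57 CPM at 72 h, against 36.9, 40.2, 31.3 and 32.5 CPM at 24 h, a fall of 4.11-fold (adjusted p = 6.79e-09). Bgn, Sparc and Pdgfra fell 3.69-fold, 3.07-fold and 2.84-fold. The single rise, Krt7, was lost without LPS 72 h replicate 2.

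Smooth muscle and endothelial markers fell in 4 of 9 cases and rose in 1, Pecam1, beside 16.3% and 18.9% of all genes. The call of Pecam1 was lost without LPS 72 h or LPS 24 h replicate 2. Tagln, an actin-binding protein of smooth muscle and myofibroblasts, at chr9:45929619-45936058, had 0.964, 1.22, 0.915 and 0.466 CPM with LPS at 72 h, against 5.31, 5.96, 8.05 and 6.92 CPM at 24 h. Controls went the other way, with 35.0, 38.8 and 40.1 CPM at 72 h, against 5.43, 6.21, 6.57 and 7.09 CPM at 24 h. The difference of the changes was log2 -5.46 ± 0.35 (SE; adjusted p = 4.96e-14). Acta2 and Des, an actin and an intermediate filament of muscle cells, fell 3.54-fold and 3.55-fold with LPS. Tagln overlaps Pcsk7 on the opposite strand. The part of these cells in the falls of cell cycle and matrix genes was not tested.

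**Figure D5:**
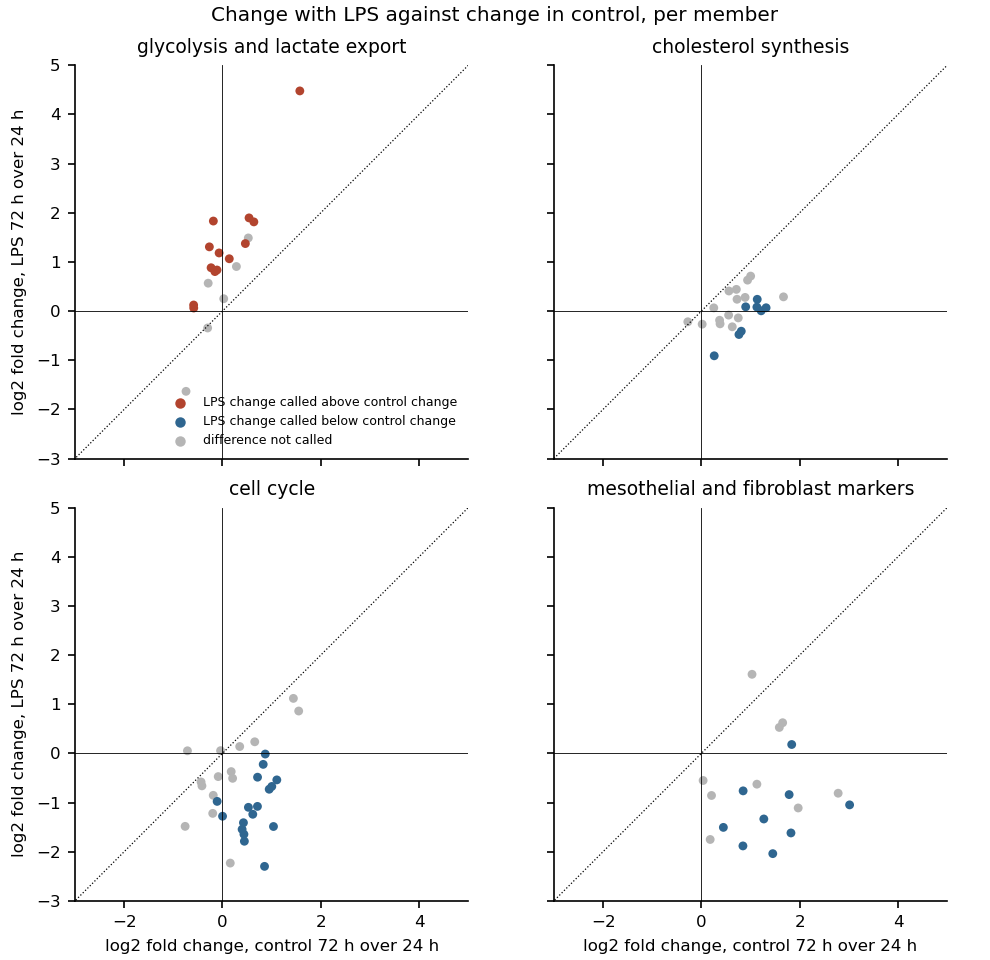
Log2 fold change of LPS 72 h over LPS 24 h (vertical) against that of control 72 h over control 24 h (horizontal) for members of 4 gene lists, with the line of equal change dotted and genes coloured where the difference was called. Glycolysis genes lie above the line for 13 called members, and cell cycle genes (17), cholesterol synthesis genes (8) and mesothelial and fibroblast markers (9) below it.

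In control cultures, with 3 libraries at 72 h, 1198 genes (8.24%) were higher and 1412 (9.71%) lower at 72 h than at 24 h. At least 2-fold, 3.99% were higher and 1.7% lower. Under RLE scaling 57.9% of the control calls were rises, against 45.9% under TMM. Counts of control calls were 604 and 772 without control 72 h replicate 1, 781 and 888 without control 72 h replicate 4, 711 and 939 without control 24 h replicate 1 and 633 and 804 without control 24 h replicate 2. The LPS change exceeded the control change for 795 genes (5.47%) and lay below it for 751 (5.17%), by at least 2-fold for 3.47% and 3.55%. Without LPS 72 h replicate 3 the first count was 497, and without LPS 72 h replicate 1 the second was 1149. The LPS and control comparisons share no library.

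Among the largest differences by the rule, Orm1 rose with LPS and had 0.424, 0.355 and 1.07 CPM in controls at 72 h and 0.642 to 2.22 CPM at 24 h, a log2 difference of 4.87 ± 1.34 (SE; adjusted p = 0.0136), and that of Mgarp was 4.46 ± 1.08. Stfa3, Hsd11b1 and Trem1 had 1 count each over the 3 control libraries at 72 h, so no fold is given, and their differences were called at adjusted p = 0.00365, 0.0301 and 0.00895. On the other side were Edn1 and Ccn1, Ch25h, which makes 25-hydroxycholesterol (2.83-fold lower with LPS; log2 difference -4.72), Siglece, an inhibitory lectin (2.02-fold lower with LPS, a call lost without LPS 24 h replicate 1, with 2 counts in the controls at 24 h), and Olfr56, which shares exons with the abundant Ifi47 and had no count in the controls at 24 h.

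Alternative activation markers, the genes used to define M2 cells, rose in 5 of 20 cases and fell in 3, beside 18.9% and 16.3% of all genes. F13a1, a transglutaminase of coagulation, rose 16.9-fold (8.46 ± 3.48 against 0.469 ± 0.198 CPM; adjusted p = 6.18e-12), and Tgm2, a tissue transglutaminase, 2.07-fold, beside Arg1 and Clec7a. Chil3, a chitinase-like lectin, had 432, 70.3, 427 and 104 CPM at 72 h, against 171, 69.7, 80.2 and 93.2 CPM at 24 h. The groups overlapped, 2 of the 4 libraries at 72 h held the excess, and the call (2.48-fold; adjusted p = 0.0473) was lost with the replicate block, in a fit of the groups alone and without any 1 of 5 of the 8 libraries. Retnla and Mrc1 were not called (log2 0.47 ± 0.83 and 0.26 ± 0.25, SE). Ccl17, an attractant of helper T cells, was 4.88-fold lower at under 3 CPM in every library (adjusted p = 0.0131), a call lost without LPS 24 h replicate 3 (log2 -1.34, against -2.29 with all).

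Markers of lymphocytes and mast cells were near the floor of detection. B cell markers summed to 10.1 to 21.02 CPM at 72 h and 14.3 to 19.6 CPM at 24 h. Of 9 tested 1 was called lower, beside 16.3% of all genes. T and NK cell markers summed to 9.64 to 17.6 CPM and 13.6 to 18.7 CPM, and mast cell and eosinophil markers to 6.29 to 6.96 CPM and 12.3 to 13.3 CPM. Of 9 dendritic cell markers 4 rose and 3 fell, beside 18.9% and 16.3% of all genes. Their summed levels were 21.2 to 34.7 CPM at 72 h and 32.0 to 53.4 CPM at 24 h. No read of Ms4a2 or Prg2 was found in the 8 libraries. The part of such cells in the other changes was not tested.

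The remaining lists moved in both directions or little, and their counts stand beside 18.9% of all genes higher and 16.3% lower. Arginine and nitric oxide genes showed 2 rises and 4 falls in 13, Atf4 amino acid stress genes 1 and 4 in 18, and iron handling genes 2 and 4 in 16. Of 21 immediate early genes 7 rose and 4 fell, with 4 rises without LPS 72 h replicate 3 or 4 or LPS 24 h replicate 2. Of 22 genes of the p53 response and cell death 5 rose and 6 fell. Of 9 markers of large peritoneal macrophages, the resident type of the unstimulated cavity, 3 rose and none fell, with 1 rise without LPS 72 h replicate 2, at summed levels of 563 to 678 CPM at 72 h and 291 to 386 CPM at 24 h. Most of that sum was Cd9, with means of 575.6 CPM at 72 h and 290.5 CPM at 24 h. Gata6, Timd4 and Icam2 were not called (log2 0.05, -0.62 and -0.12).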

How the data were processed

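The deposited values are whole-number counts of reads per gene, made by the authors from poly(A) RNA libraries (Diagenode CATS kit, per the labels' protocols). The submitters' processing notes name cutadapt, Bowtie2, TopHat2 2.1.1, HTSeq, DESeq, edgeR and mm10. Which gene annotation was counted, and whether by strand, is not given in the sources used here, so reads of genes that overlap on opposite strands cannot be told apart. Of 46078 gene IDs, 45229 were found in GENCODE M21 (GRCm38), the source of names and gene coordinates, and promoters came from RefSeq. Library sizes leave out 5 summary lines of the counter, and ambiguous reads were 5.39% of reads in genes (3.16 to 17.3% by library).

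All 44 libraries, in 12 groups, were fitted with edgeR 4.0.16 in R 4.3.3 (limma 3.58.1) by the quasi-likelihood test, with TMM scaling, filterByExpr at a minimum count of 10 and Benjamini-Hochberg adjustment over 14537 genes. A call is an adjusted p under 0.05. Contrasts were LPS 72 h minus LPS 24 h, control 72 h minus control 24 h and their difference. The script was tested on simulated data. Alternatives, DESeq2 1.42.0 among them, are in the closing section.

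Named genes were the 10 largest rises and falls with no overlap of libraries and a mean of at least 5 CPM, the 6 most abundant at least 2-fold rises and falls, the 5 largest differences each way, up to 4 members of each list with the smallest p, and fixed genes. Others, such as Hp, Gbp8, Osm, Ciita, Nusap1, Krt7, Hk1 and Hk3, were chosen after their values were seen. Gene lists and comparison were chosen with earlier results of these data known, and list counts are descriptions with no test. Some genes that the naming rule picks are not reported here.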

Additional observations from a re-analysis of the deposited data

Results flagged for a closer look

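For each of the 134 genes named with per-library values, the highest and the lowest of the 4 libraries at each time were set against the rest, and 30 values in 268 groups stood farther from their neighbour than Dixon's 95% critical value allows. Chance flags about 1 in 20 such groups. LPS 72 h replicate 1 held 18 of the 30. Its values were Rsad2 (1562 CPM), Irgm2 (108 CPM), Inhba (2015 CPM), Atf3 (109 CPM), H2-Ab1 (675 CPM), Tapbp (565 CPM), H2-M2 (13610 CPM), Aldoc (37.6 CPM) and Rpl5 (997 CPM). They were also Hyou1 (27.0 CPM), Pgd (190 CPM), C1s1 (68.4 CPM), Thbs1 (582 CPM), Axl (93.5 CPM), Mpeg1 (1519 CPM), Akap5 (6966 CPM), Rnf225 (0 CPM) and Acta2 (0 CPM). LPS 24 h replicate 3 held 6, which were Cxcl10 (411 CPM), Il1rn (955 CPM), Slamf1 (45.6 CPM), Aldoc (1.91 CPM), Arg1 (65.1 CPM) and Clec7a (896 CPM). LPS 24 h replicate 1 held Tmem119 (2.24 CPM), Slc16a3 (98.7 CPM) and Ccne1 (31.3 CPM). The others were Ltc4s (0.0775 CPM) in LPS 24 h replicate 2, Tpx2 (4.86 CPM) in LPS 72 h replicate 2 and Stfa3 (67.5 CPM) in LPS 72 h replicate 4.

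For 76 of these genes the change from 24 h to 72 h differed between LPS and control cultures at an edgeR adjusted p under 0.05 for the difference itself, and the values that follow are log2 change with LPS minus log2 change in controls. The LPS change was the higher for 37 genes. The widest were Orm1 (4.87), Mgarp (4.46), Ltc4s (4.05), Mmp8 (3.91), Tmem119 (3.69), Cdo1 (3.48), F13a1 (3.38), F630028O10Rik (3.04), Aldoc (2.90) and Alox5ap (2.65). Next came Hp (2.62), Saa3 (2.41), Mxi1 (2.25), Vegfa (2.19), Cd14 (2.08), S100a8 (2.01), Thbs1 (1.99), Bnip3 (1.90), Hilpda (1.86) and Clec7a (1.73). Smaller differences were those of Prdx6 (1.70), Itgam (1.51), Clec12a (1.47), Tpi1 (1.35), Pla2g7 (1.35), Slc16a3 (1.18), Dusp1 (1.16), Lyz2 (1.13), H2-Eb1 (1.10) and Fabp4 (1.09). The smallest were Tgm2 (1.07), C1s1 (0.98), H2-Aa (0.96), H2-Ab1 (0.91), Ldha (0.91), Fcgr2b (0.60) and Ctss (0.51). The LPS change was the lower for 39 genes, led by Tagln (-5.46), Edn1 (-5.17), Ccn1 (-5.12), Ch25h (-4.71), Ccn2 (-4.68), Ccl7 (-3.83), Acta2 (-3.58), Serping1 (-3.56) and Isg20 (-3.53). These were followed by Cxcl5 (-3.50), Col1a1 (-3.49), Sparc (-3.44), Tlr9 (-3.25), Des (-3.20), Timp3 (-2.93), Acod1 (-2.87), Tmem202 (-2.75) and Bgn (-2.73). Further ones were C1qb (-2.65), Icosl (-2.32), Gbp9 (-2.12), Ccne1 (-2.08), Pdgfra (-1.95), Rrm2 (-1.84), Ms4a6d (-1.72), Axl (-1.60), Il1rn (-1.34) and Nr1h3 (-1.29). The last were Tpx2 (-1.28), Tlr3 (-1.28), Gch1 (-1.20), Cd86 (-1.16), Tlr1 (-1.14), Ifih1 (-1.06), Trim30a (-0.93), Mcm6 (-0.87), Pdia6 (-0.82), Atf3 (-0.67) and Abcg1 (-0.59). Genes with 3 or fewer counts in a control group were not given a difference.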

How the results depend on the processing

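Alternatives were RLE scaling, no filter on low counts, the replicate number as a block, the groups compared alone with and without that block, DESeq2 and leaving out each library. Chosen after seeing the data were leaving out replicate 3 of both LPS times and thinning the 8 LPS libraries to 1103271 counts each. The 2751 rises and 2366 falls with LPS stayed within 1.5 times under each of these except thinning, for the rises. Without 1 library they ranged from 2005 to 2456 and from 1844 to 3161. Thinning gave 1486 rises. In controls the counts without 1 library ranged from 604 to 1124 rises and 772 to 1341 falls. The difference of the changes was called higher for 497 to 787 genes and lower for 583 to 1149 without 1 library, and higher for 455 genes in a fit of the groups alone. Over single genes, leaving aside the settings chosen after seeing the data, 2610 values kept their call, 64 lost it and 12 gained it. Ccl17 (log2 0.05) and Pecam1 (log2 -0.50) changed sign, both after thinning only. The cause was not tested. At 1103271 counts, LPS 72 h replicate 1 limits genes of a few CPM.

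Same-numbered LPS cultures correlated at 0.002, 0.053, 0.255 and -0.098 in their deviations from the group means, so the numbers were not taken to pair them. Replicate 3 nevertheless held the most ambiguous reads in LPS and control cultures at 24 h and at 72 h. These were 12.2% in LPS 24 h (others 3.62 to 4.04%) and 11.1% in LPS 72 h (4.19 to 9.36%). In controls they were 13.6% at 24 h (others 3.41 to 4.45%) and 17.3% at 72 h (5.82 and 7.97%). At 8 h replicate 3 held the most in controls (16.1%) but not with LPS (3.92%, against 4.51% in replicate 4). Whether same-numbered cultures share a batch was not tested. With the replicate block, 2974 genes rose and 2490 fell with LPS, 1213 and 1339 in controls, and the difference was called for 825 and 765. In a fit of the groups alone with the block the difference was called higher for 328 genes.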
